A study of Saccharomyces cerevisiae with 14 samples.

Results

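The 7 genes of glycerol synthesis, uptake and use in budding yeast were examined across the RNASeq libraries of 4 chaperone-enriched strains (ChES). They were chosen by function, though with earlier results of these data known, and are 7 of the 7122 genes in the table. The members are GPD1 (YDL022W), GPD2 (YOL059W), GPP1 (YIL053W), GPP2 (YER062C), STL1 (YDR536W), GUT1 (YHL032C) and GUT2 (YIL155C). Each strain is Y258, a derivative of S288C, that overexpresses (oe) a single chaperone from a plasmid carrying URA3. The oe SSC1 strain carries the mitochondrial Hsp70 and is represented by 3 libraries. The oe LHS1 strain carries an Hsp70 family chaperone of the endoplasmic reticulum (3 libraries), oe EGD2 a part of the NAC, which binds nascent polypeptides at the ribosome (2 libraries) and oe TCP1 a subunit of the cytosolic T-complex (3 libraries). The 3 libraries of wild-type Y258 with the empty vector were not analysed here, so every comparison below is between chaperone strains. The labels give exponential cultures in 2% glucose at 30 °C, in –URA medium for these strains, whereas the methods of the study describe induction with galactose and harvest after the diauxic shift. The growth state behind the values can thus not be fixed from the descriptions.

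Values are normalized counts, i.e. reads per gene divided by a size factor of the library. Depth ranged from 10127206 reads (oe TCP1 replicate 3) to 20286329 reads (oe TCP1 replicate 2), and counting error is small beside the differences between libraries. The overexpressed gene was highest in all libraries of its own strain for LHS1 (23647 to 60337, against 1344 to 2211 elsewhere), EGD2 (17746 and 24039, against 6127 to 16374) and TCP1 (22042 to 47002, against 1726 to 2577). The libraries labelled oe SSC1 held 11336, 30045 and 82518 normalized counts of SSC1, against 14940 to 32390 elsewhere, so that only 1 of 3 stood above all other strains. That label was therefore not borne out by its own gene in every library. Libraries of 1 strain differed far beyond sampling noise, the closest pair being oe LHS1 replicates 2 and 3, with a chi-square per gene of 12.1 against 324 to 874 in the other pairs. In a bulk culture, a lower level in every cell and a smaller share of cells with the transcript cannot be told apart.

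Glycerol is made in yeast from dihydroxyacetone phosphate, an intermediate of glycolysis. Glycerol-3-phosphate dehydrogenase (Gpd1, Gpd2) reduces it with NADH, and glycerol-3-phosphatase (Gpp1, Gpp2) removes the phosphate. GPD1 and GPP2 are known for their induction by osmotic stress through the Hog1 kinase, while GPD2 and GPP1 are known for their role in disposing of surplus NADH when oxygen is scarce. Stl1 is a symporter that brings glycerol and protons into the cell. Glycerol is used through the kinase Gut1 and the mitochondrial, FAD-dependent dehydrogenase Gut2, whose genes are repressed by glucose.

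Upstream sequences of 4 members are shown because members with the same reaction differed in how much they varied. Each is a window of 300 bases, 400 to 101 bases before the start codon, from the R64 assembly (the same as sacCer3), credited to RefSeq and written 5′ to 3′ on the strand of the gene. Capitals mark AGGGG or its reverse CCCCT, the stress response element bound by Msn2 and Msn4, and GGGACAAA or its reverse TTTGTCCC, described as an element for the regulator Hot1 in the STL1 promoter. The windows lie at chrIV:411425-411724 (GPD1, plus strand), chrIV:1507605-1507904 (STL1, plus strand), chrV:280783-281082 (GPP2, minus strand) and chrXV:216726-217025 (GPD2, plus strand).
GPD1: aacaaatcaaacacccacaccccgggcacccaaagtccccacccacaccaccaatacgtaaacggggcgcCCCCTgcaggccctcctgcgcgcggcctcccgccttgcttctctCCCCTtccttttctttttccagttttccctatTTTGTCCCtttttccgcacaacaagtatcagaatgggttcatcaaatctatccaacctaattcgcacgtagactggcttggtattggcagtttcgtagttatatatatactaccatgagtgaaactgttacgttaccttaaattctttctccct
STL1: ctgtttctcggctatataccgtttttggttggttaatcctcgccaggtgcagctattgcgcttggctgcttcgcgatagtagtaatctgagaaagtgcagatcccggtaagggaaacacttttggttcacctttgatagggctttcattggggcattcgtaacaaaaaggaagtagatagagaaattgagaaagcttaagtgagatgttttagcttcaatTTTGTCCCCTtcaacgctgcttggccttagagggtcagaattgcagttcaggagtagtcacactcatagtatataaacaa
GPP2: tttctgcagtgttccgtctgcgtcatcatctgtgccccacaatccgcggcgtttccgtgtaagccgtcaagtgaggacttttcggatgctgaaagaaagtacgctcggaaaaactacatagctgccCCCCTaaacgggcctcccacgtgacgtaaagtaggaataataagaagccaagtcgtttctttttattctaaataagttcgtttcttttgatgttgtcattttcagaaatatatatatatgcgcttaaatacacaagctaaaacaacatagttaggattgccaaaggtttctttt
GPD2: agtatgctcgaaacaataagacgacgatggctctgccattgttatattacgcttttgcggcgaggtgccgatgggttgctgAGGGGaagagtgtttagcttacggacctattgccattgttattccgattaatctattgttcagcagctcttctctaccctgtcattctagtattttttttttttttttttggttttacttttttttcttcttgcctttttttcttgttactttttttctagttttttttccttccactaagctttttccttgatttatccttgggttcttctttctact

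AGGGG on either strand lay in 23.5% of the 6001 windows of the same length, one before each gene. GPD1 held it at 330 and at 286 bases before the start codon, GPD2 at 319, GPP2 at 274 and STL1 at 175. In the windows of GUT1 and GUT2, which are not shown, it lay at 180 and at 157. GGGACAAA on either strand was found in GPD1, at 254 bases, and in STL1, at 180 bases, where it shares 3 bases with the CCCCT. It was found in no window of GPD2, GPP2, GUT1 or GUT2 and in 0.733% of all windows. Another motif, CATGTG, the core of the element bound by Ino2 and Ino4, occurred in the GUT1 window, at 316 bases, and in 9.27% of all windows. These matches describe the letters of the windows and do not show that a site is used, and since not every member's window is reported, no count over the members is given.

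The members are single-exon coding regions at chrIV:411825-413000 (GPD1), chrXV:217126-218448 (GPD2), chrIX:255115-255867 (GPP1), chrV:279930-280682 (GPP2), chrIV:1508005-1509714 (STL1), chrVIII:36379-38508 (GUT1) and chrIX:51759-53708 (GUT2). Among the members are duplicated pairs, whose reads could be confused. The coding sequences of GPP1 and GPP2 are identical at 82.7% of aligned bases, with a longest shared run of 26 bases. GPD1 and GPD2 are identical at 74.2% of aligned bases, with a longest shared run of 25 bases. The runs are shown because they are the stretches where the copies are hardest to tell apart, and both are shorter than a read of 50 bases.
GPP1 and GPP2: atcatctctcaaccagccattgctgc
GPD1 and GPD2: tgttccacagaccttacttccacgt
No stretch of 50 bases of any member occurred elsewhere in the genome, so that a read without errors has a single origin. No other RefSeq gene overlaps a member. Reads were counted without strand, and rows of the table with no RefSeq match were not examined for overlap.

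GPD1, the first step of synthesis, had a median over the 11 libraries of 16878 normalized counts per kb of coding length, the highest median of the 7, though GPP1 was above it per length in 5 of 11 libraries. Its normalized counts were 31855, 7677 and 9600 in oe SSC1, 33068, 4995 and 4410 in oe LHS1, 23497 and 24093 in oe EGD2, and 43761, 19848 and 2051 in oe TCP1. The highest and the lowest library both belonged to oe TCP1, 21.3-fold apart, while the oe EGD2 libraries differed by 1.02-fold. The ranges of all 4 strains overlapped or enclosed each other. GPD2, its paralog, stayed within 1.71-fold over all libraries. It was at 5133, 3560 and 5472 normalized counts in oe SSC1, 5188, 4859 and 4323 in oe LHS1, 5829 and 6001 in oe EGD2, and 3516, 5923 and 4844 in oe TCP1. Its lowest library was oe TCP1 replicate 1, in which GPD1 was at its highest.

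The phosphatases also differed in how they varied. GPP1 was at 11248, 6204 and 21657 normalized counts in oe SSC1, 11553, 13024 and 12656 in oe LHS1, 14421 and 11441 in oe EGD2, and 7296, 11821 and 20685 in oe TCP1. It spanned 3.49-fold, from oe SSC1 replicate 2 to oe SSC1 replicate 3, and its strain means lay between 12411 ± 766 (oe LHS1) and 13267 ± 6811 (oe TCP1; SD, n = 3 each). GPP2 was at 9478, 9062 and 6498 in oe SSC1, 11296, 3354 and 2903 in oe LHS1, 8710 and 6964 in oe EGD2, and 14772, 6855 and 1658 in oe TCP1. Its span was 8.91-fold, and its highest and lowest libraries were the same as those of GPD1. Per kb of coding length the medians were 15698 for GPP1 and 9248 for GPP2.

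STL1, the importer, varied most of the 7. It was at 9132, 1224 and 862 normalized counts in oe SSC1, 9000, 349 and 363 in oe LHS1, 7032 and 4830 in oe EGD2, and 13160, 6656 and 188 in oe TCP1. The span was 70.2-fold, again between oe TCP1 replicate 3 and oe TCP1 replicate 1. No library lay between 1224 and 4830. Above this gap were 6 libraries, namely oe SSC1 replicate 1, oe LHS1 replicate 1, both of oe EGD2 and oe TCP1 replicates 1 and 2, so that 3 of the 4 strains had libraries on both sides. The same 6 libraries were the highest 6 for GPD1 (at least 19848, against at most 9600) and, narrowly, for GUT2 (at least 3349, against at most 3335). They were not the highest 6 for GPD2, GPP1, GPP2 or GUT1. Replicate 1 of every strain was among these 6 libraries. The gap was chosen from the values of STL1 itself. The share of all tested genes for which these 6 libraries were highest was not computed, so the match is no result about the members.

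GUT1, the glycerol kinase, had the lowest median per length, 925 normalized counts per kb, though STL1 was below it per length in 5 of 11 libraries and GUT2 in 3. It was at 1970, 1581 and 2769 normalized counts in oe SSC1, 1810, 1441 and 1430 in oe LHS1, 2650 and 5869 in oe EGD2, and 2863, 5621 and 1193 in oe TCP1. The 4.92-fold span ran between oe TCP1 replicate 3 and oe EGD2 replicate 2, and all oe LHS1 libraries lay below both oe EGD2 libraries. GUT2, the dehydrogenase, was at 3349, 2169 and 3335 in oe SSC1, 3509, 1140 and 991 in oe LHS1, 4940 and 7441 in oe EGD2, and 8766, 6796 and 795 in oe TCP1. It spanned 11.02-fold, between oe TCP1 replicates 3 and 1, and both oe EGD2 libraries exceeded every library of oe SSC1 and oe LHS1.

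**Figure D1:**
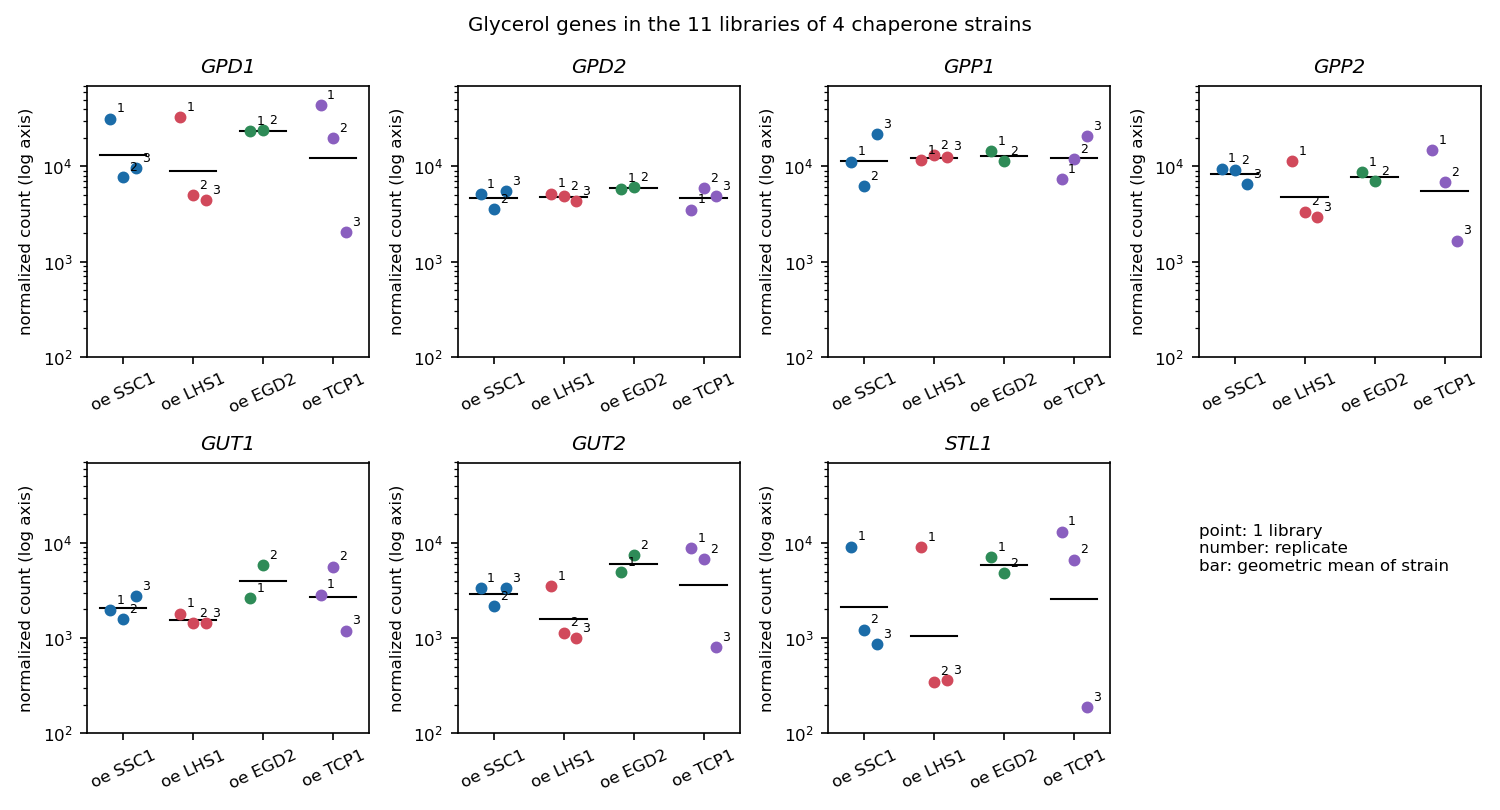
Normalized counts (log axis) of the 7 members in each library, by strain. Each point is 1 library with its replicate number and each bar the geometric mean of the strain. STL1 and GPD1 spread widely within oe TCP1, oe LHS1 and oe SSC1, whereas GPD2 stays between 3516 and 6001 throughout.

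The members differed in how far libraries of 1 strain lay apart, from well above the median gene for STL1 to below it for GPD2. The pooled SD within strains, on the log2 scale of the normalized count plus 1, was 2.48 for STL1, 1.61 for GPD1, 1.18 for GUT2, 1.05 for GPP2, 0.72 for GUT1, 0.64 for GPP1 and 0.28 for GPD2. Its median was 0.45 over the 6592 genes tested, those whose mean reached 5. STL1 ranked 32nd of these genes, and 99.5% of them had a smaller SD. The share of genes with a smaller SD was 96.0% for GPD1, 91.5% for GUT2, 88.9% for GPP2, 77.0% for GUT1 and 71.2% for GPP1. For GPD2 it was 20.8%. The share of a member's variance that lay between strains was 40.2% for GUT1, 33.4% for GUT2, 25.3% for GPD2, 14.9% for STL1, 13.6% for GPP2, 11.6% for GPD1 and 1.2% for GPP1, beside a median of 26.5% over the tested genes. For 5 of the 7 members, then, less of the variance lay between strains than for the median gene, narrowly so for GPD2. As many genes lie below a median as above it, so at 7 members this count is no result about them.

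**Figure D2:**
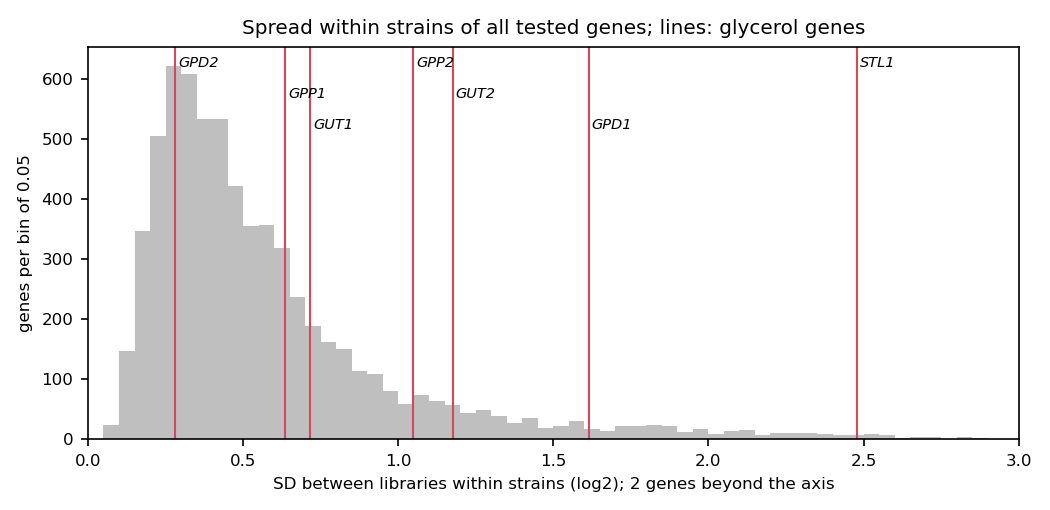
Distribution of the SD between libraries within strains (log2) over the 6592 tested genes, as genes per bin, with 2 genes beyond the axis. The lines mark the members, from GPD2 at 0.28, below the median gene, to STL1 at 2.48.

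With this spread, no member differed between strains past the threshold. In the F test of limma for any difference among the 4 strains (Benjamini-Hochberg adjusted p under 0.05), 0 of 7 members passed, where 3 of 6592 genes did (0.0455%). No member was under an unadjusted p of 0.05 there, and edgeR and DESeq2 on recovered reads also called 0. Adjusted p from limma was 0.964 for 6 members and 0.998 for GPP1. With every strain compared in turn with the average of the rest, limma called 0 of 7 members in every case, with 0 under an unadjusted p of 0.05, and edgeR and DESeq2 called 0. The share of all tested genes called was 0.0152% for oe SSC1, 0.0152% for oe LHS1, 0% for oe EGD2 and 0.0152% for oe TCP1. With so few genes called in all, 0 of 7 is no result about these members.

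The differences of oe LHS1 and of oe EGD2 are given singly, and none passed the test. GUT1 differed by -0.85 on the log2 scale in oe LHS1 against the other 3 strains (SE 0.43, 95% interval -1.80 to 0.11, limma adjusted p = 0.677). GUT2 differed by -1.33 in that comparison (SE 0.68, interval -2.85 to 0.19, limma adjusted p = 0.677). For STL1 the difference was -1.60, but its interval ran from -4.74 to 1.55, and it changed to -3.15 without oe LHS1 replicate 1 and to -0.72 with edgeR. In oe EGD2 against the other 3, GUT1 differed by 0.95 (SE 0.49, interval -0.15 to 2.05) and GUT2 by 1.25 (SE 0.78, interval -0.50 to 3.00, limma adjusted p = 0.707 for both). The value for GUT1 was 0.38 without oe EGD2 replicate 2 and 1.52 without oe EGD2 replicate 1. GPD1 differed by 1.07 (interval -1.34 to 3.49) in limma, but by 0.48 with edgeR and 0.47 with DESeq2. STL1 differed by 1.71 (interval -1.90 to 5.32) in limma, but by 0.47 with edgeR and 0.45 with DESeq2. These intervals allow differences of several fold either way for STL1 and GPD1. They were narrowest for GPD2, at -0.59 to 0.44 in oe LHS1 and -0.26 to 0.93 in oe EGD2.

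**Figure D3:**
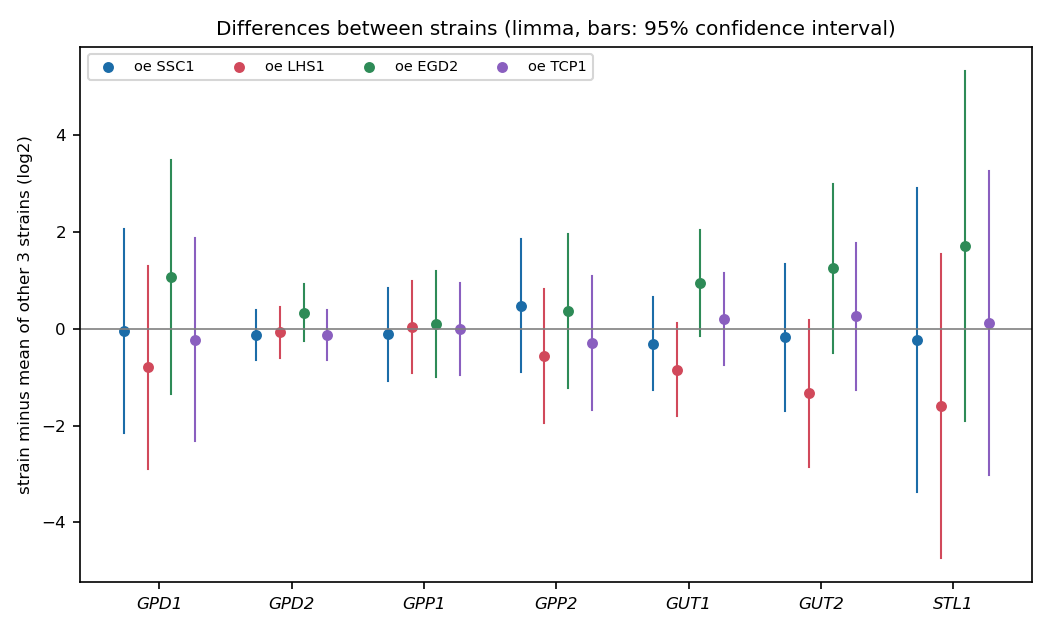
Difference of each strain from the mean of the other 3 (log2, limma) for each member, with 95% confidence intervals as bars. All 28 intervals include 0, those of STL1 being the widest and those of GPD2 the narrowest.

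In the 6 pairs of strains, limma again called 0 of 7 members, where 0.0152% to 0.0303% of genes were called, and edgeR and DESeq2 called 0 as well. Without adjustment, GUT1 was under a p of 0.05 by limma and by edgeR in oe LHS1 against oe EGD2 only. So were 475 of the 6592 tested genes by limma and 539 by edgeR. In limma the GUT1 difference was -1.35 (SE 0.58, interval -2.63 to -0.06, adjusted p = 0.490). DESeq2 held GUT1 and GUT2 under that unadjusted p in oe LHS1 against oe EGD2, against oe TCP1 and against the mean of the other 3. It held 822, 299 and 498 of all tested genes under it in these comparisons, in that order. Of 42 comparisons of a member between 2 strains, the libraries overlapped in 37. In oe LHS1 against oe EGD2, 3 of 7 members did not overlap (GPD2, GUT1 and GUT2, all lower in oe LHS1), beside 41.4% of all tested genes. In oe SSC1 against oe EGD2, GPD2 and GUT2 did not overlap, both lower in oe SSC1, beside 18.9% of all tested genes. In the other 4 pairs all members overlapped, beside no overlap in 4.32% of genes for oe SSC1 against oe LHS1, 2.18% for oe SSC1 against oe TCP1, 6.95% for oe LHS1 against oe TCP1 and 11.2% for oe EGD2 against oe TCP1. None of these shares departs much from the members' count at so few members. By geometric mean, oe EGD2, with only 2 libraries, was highest for 6 of the 7 members, the exception being GPP2, which was highest in oe SSC1. The share over all tested genes was not computed, so this count is no result about the members. For GPP1 the mean log2 values were close, at 13.65 in oe EGD2 and 13.60 in oe LHS1. Without oe EGD2 replicate 1, the GPP1 difference of oe EGD2 from the other 3 was -0.068.

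Ratios within a library do not depend on how that library was scaled. GPD1 exceeded GPD2 per length in 10 of 11 libraries, the exception being oe TCP1 replicate 3. The log2 ratio of GPD1 to GPD2 was 2.80, 1.28 and 0.98 in oe SSC1, 2.84, 0.21 and 0.20 in oe LHS1, 2.18 in both libraries of oe EGD2, and 3.81, 1.91 and -1.07 in oe TCP1. The paralogs thus swapped order within a single strain, over a 29.4-fold range. GPP1 exceeded GPP2 in 9 of 11 libraries, and the log2 ratio ran from -1.02 (oe TCP1 replicate 1) to 3.64 (oe TCP1 replicate 3). That is the reverse of the order of these libraries for GPD1 to GPD2. GUT1 was below GUT2 in 8 of 11 libraries, with a log2 ratio from -1.74 to 0.46 and the same pair of libraries at the ends. GPD1, for synthesis, exceeded GUT1, for use, in all 11 libraries, by 3.11-fold to 33.1-fold per length. In an exact permutation test of each ratio over the 92400 ways of assigning libraries to strains, p was 0.897, 0.894, 0.817 and 0.957 in that order, and the adjusted p over the 4 ratios was 0.957 in each case. No difference between strains was detected in any ratio.

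**Figure D4:**
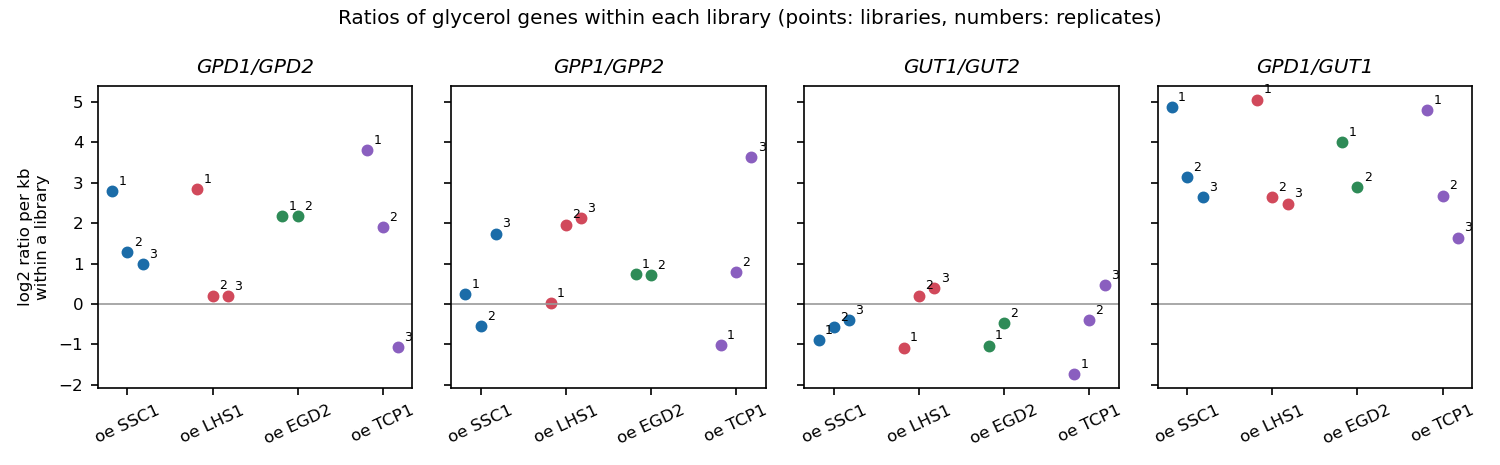
Log2 ratio of 2 members per kb of coding length within each library, by strain, with replicate numbers. The oe TCP1 libraries span -1.07 to 3.81 for GPD1 over GPD2 and, in reverse order, -1.02 to 3.64 for GPP1 over GPP2.

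Some of the members varied together across strain borders. Over the 11 libraries, Pearson's r of log2 values was 0.913 between GPD1 and GPP2 (Spearman's rho 0.900, permutation adjusted p over 21 pairs = 0.00063 and 0.0019). It was 0.897 between GPD1 and GUT2 (rho 0.855, permutation adjusted p = 0.0012 and 0.0061) and 0.854 between GUT1 and GUT2 (rho 0.909, permutation adjusted p = 0.0031 and 0.0019). After leaving out the 2 libraries farthest from the median of the first gene, r was 0.791, 0.792 and 0.912 in these pairs. As deviations from the strain means, r was 0.938, 0.932 and 0.782. Many other genes were closer still. Of 6591 other tested genes ranked by r, GPP2 was 115th and GUT2 167th for GPD1, and GUT2 was 463rd for GUT1. These relations are thus not particular to the members. GPP2 and GUT2 had r = 0.824 (rho 0.691, permutation adjusted p = 0.0061 and 0.059), and 0.606 without 2 libraries. Of the pairs that did not pass, GPD1 and GUT1 had r = 0.610 (rho 0.673, permutation adjusted p = 0.095 and 0.063), and 0.385 without 2 libraries. GPP2 and GUT1 had r = 0.459 (rho 0.455, permutation adjusted p = 0.24 for both), and 0.056 without 2 libraries. GPD1 and GPD2 were not detectably related (r = 0.160, rho 0.209, permutation adjusted p = 0.71 and 0.59). GPP1 and GPP2 ran against each other, with r = -0.602 and rho -0.727 (permutation adjusted p = 0.095 and 0.042), and r = -0.788 without 2 libraries. The r of 0.634 between GPD2 and GPP1 rested on 2 libraries, oe TCP1 replicate 1 and oe SSC1 replicate 2, and was -0.113 without them. Leaving out the same 2 libraries moved r the other way in other pairs of GPD2. It rose from 0.230 to 0.911 with GUT2, from 0.498 to 0.873 with GUT1 and from -0.108 to 0.629 with GPP2. Over all 11 libraries none of these pairs passed, so how GPD2 relates to the other members depended on these 2 libraries. Since libraries fell on both sides of the gap in STL1, no test of its relation to the other members or to the marker lists is given. The adjustments over 21 pairs, and over 14 relations to the lists, still count those of STL1. GPD1 also had no library between 9600 and 19848, with the same libraries above, so its p-values carry a like limit.

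The genes most like each member over the 11 libraries, by Pearson's r among 6591 other tested genes, are given as a description, since libraries that differ in 1 way make many genes alike. For GPD1 they were STL1 (0.982), the proline permease gene PUT4 (0.977) and GID10 (0.975), which encodes a substrate receptor of a ubiquitin ligase. For STL1 they were SAT4, a protein kinase gene (0.982), GPD1 (0.982) and PUT4 (0.978). GPP2 was most like SHC1, ICL1, which encodes isocitrate lyase of the glyoxylate cycle, and YDL023C (0.980 each). YDL023C, at 13 to 411 normalized counts, has no RefSeq match. Whether it overlaps a member was not examined, so it may not be an independent neighbour. GUT1 was most like YSC83 (0.982), AIM18 (0.972) and MRK1 (0.972), a kinase gene of the GSK-3 family. GUT2 was most like PRB1, which encodes vacuolar proteinase B (0.989), YNL195C (0.987) and YMR196W (0.986). The more even members had other neighbours, namely ERP6 (0.931), RAM2 (0.929) and the actin gene ACT1 (0.921) for GPD2, and NCW1 (0.951), GRX3 (0.948) and YSF3 (0.934) for GPP1.

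General stress genes also varied between libraries. The median of 14 stress markers (HSP12, HSP26, DDR2 and others), as deviation from each gene's mean over libraries on the log2 scale, was 0.70, -0.64 and 0.51 in oe SSC1, 0.87, -1.90 and -1.92 in oe LHS1, 1.02 and 1.69 in oe EGD2, and 1.26, 1.54 and -2.99 in oe TCP1. Its summed level ranged from 19853 to 467113 normalized counts and no marker was at 0. HSP12, a membrane-associated heat shock protein gene, alone ran from 1155 (oe LHS1 replicate 3) to 70965 (oe TCP1 replicate 2). Across the 11 libraries the marker median had r = 0.970 with GUT2 (rho 0.973, permutation adjusted p over 14 relations = 0.00014 for both, from the smallest p that 100000 resamples can give), and r = 0.947 without 2 libraries. It had r = 0.925 with GPD1 (rho 0.782, permutation adjusted p = 0.00093 and 0.022), 0.850 with GPP2 (rho 0.591, permutation adjusted p = 0.0045 and 0.10) and 0.828 with GUT1 (rho 0.936, permutation adjusted p = 0.0045 and 0.00056). For GPD2 and GPP1 it was 0.340 and -0.298 (rho 0.582 and -0.382), with permutation adjusted p of 0.36 and 0.40 for r. Leaving out oe TCP1 replicate 3 and oe LHS1 replicate 3 lowered r to 0.598 for GPP2 and kept it at 0.827 for GPD1 and 0.780 for GUT1. The share of all tested genes as close to the marker median was not computed. These relations are therefore not shown to be particular to the members.

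**Figure D5:**
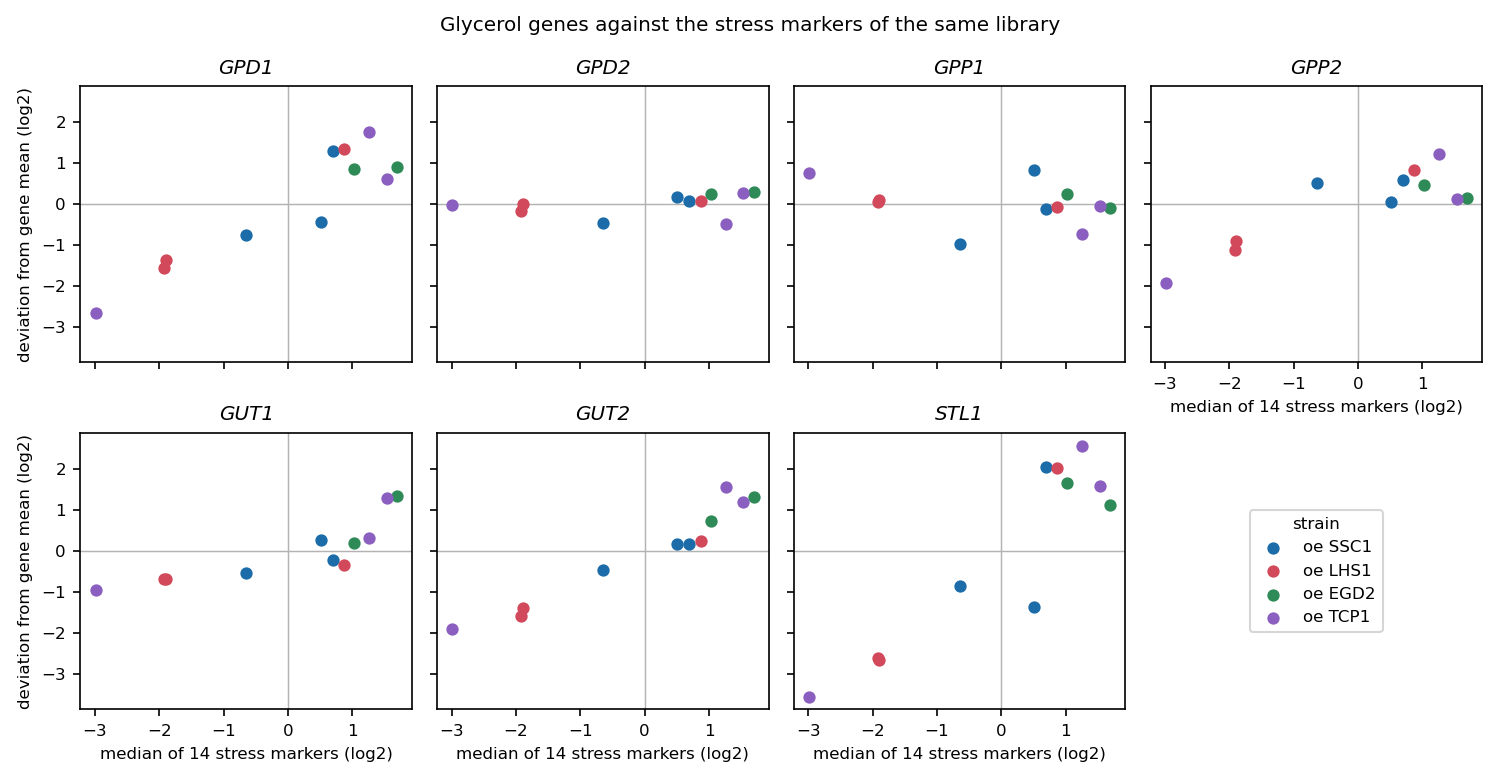
Deviation of each member from its mean over libraries (log2) against the median of 14 stress markers in the same library (log2), with points coloured by strain. GPD1, GPP2, GUT1, GUT2 and STL1 are at their lowest in oe TCP1 replicate 3, which is also lowest in the markers at -2.99, whereas GPD2 and GPP1 are not.

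Ribosome biogenesis genes, 10 in all, were highest in oe TCP1 replicate 3, where the stress markers were lowest. Their median deviation was 0.13, -0.04 and -0.91 in oe SSC1, 0.02, 0.83 and 0.73 in oe LHS1, -0.43 and -1.28 in oe EGD2, and -0.10, -0.70 and 1.64 in oe TCP1. It had r = -0.864 with GUT1 (rho -0.909, permutation adjusted p = 0.0019 and 0.00089) and r = -0.842 with GUT2 (rho -0.745, permutation adjusted p = 0.0025 and 0.030). With GPD1 r was -0.673 (rho -0.473, permutation adjusted p = 0.038 and 0.20) and with GPP2 -0.667 (rho -0.318, permutation adjusted p = 0.038 and 0.37). For GPD2 and GPP1 r was -0.400 and 0.168 (rho -0.618 and 0.109), with permutation adjusted p of 0.28 and 0.62 for r. After leaving out oe TCP1 replicate 3 and oe EGD2 replicate 2, r was -0.792 for GUT1, -0.740 for GUT2, -0.437 for GPD1 and -0.514 for GPP2. Here too the share of all tested genes with so close a relation was not computed. Of the galactose genes, GAL1, the galactokinase gene, was between 237 and 836 normalized counts and GAL7 between 42 and 417. The part of the stress and ribosome biogenesis genes' state in the members' values was not tested.

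The rest of the pathway was described from lists of genes. In no list was any gene called by limma in the F test or in a strain against the other 3, in either direction. Of 12 other glycerol genes, 0 were called and 0 were under an unadjusted p of 0.05 in these comparisons. Their median difference from the other strains was lowest for oe LHS1 at -0.49 and highest for oe EGD2 at 0.36, while oe SSC1 (0.09) and oe TCP1 (-0.06) lay between. Over all tested genes the medians were between -0.01 and 0.01. GCY1, which encodes a putative glycerol dehydrogenase of an alternative route of use, ranged from 303 (oe LHS1 replicate 3) to 6433 (oe EGD2 replicate 2). YIG1, which encodes a regulator of glycerol-3-phosphatase activity, ranged from 93 to 881, AQY3, an aquaglyceroporin gene, from 297 to 2818, and GIT1, the glycerophosphoinositol permease gene, from 40 to 814. Outside the rule for naming genes, and chosen after their values were seen, DAK1, FPS1, HOG1 and HOT1 are also given. DAK1, the dihydroxyacetone kinase gene of the same alternative route, ranged from 1968 (oe TCP1 replicate 3) to 15812 (oe TCP1 replicate 2). FPS1, the glycerol export channel gene, ranged only from 2360 to 3131.

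In the list of glycerol-3-phosphate acylation (4 genes), 0 were called, and AYR1, the acyldihydroxyacetone phosphate reductase gene, had the lowest F test p (unadjusted 0.0359 by limma). It was at 1244, 891 and 2571 normalized counts in oe SSC1, 1225, 1461 and 1186 in oe LHS1, 3259 and 4161 in oe EGD2, and 1375, 2716 and 1198 in oe TCP1. Both oe EGD2 libraries were thus above all others. Of all 6592 tested genes, 37 were under an unadjusted F test p of 0.05 by limma. Of 22 genes of the HOG pathway, which signals osmotic stress, 0 were called (unadjusted p under 0.05 for 2 in oe SSC1 and 1 in oe EGD2), and their medians differed by at most 0.05 in size in any strain. Over all 6592 tested genes, 59 in oe SSC1 and 194 in oe EGD2 were under that unadjusted p by limma. HOG1 itself stayed between 3087 and 4701 and HOT1 between 802 and 1153, while RCK2, a kinase gene downstream of Hog1, ranged from 2424 to 6402. Of 9 regulators of glycerol use, 0 were called (unadjusted p under 0.05 for 2 in oe EGD2), with a median of 0.62 in oe EGD2 and -0.29 in oe LHS1. RSF1 ranged from 315 to 1293. Of 4 genes of mitochondrial NADH oxidation, 0 were called. NDE1, an external NADH dehydrogenase gene, was highest in oe TCP1 replicate 3 (7921) and its paralog NDE2 lowest there (98, against up to 4118 in oe TCP1 replicate 2).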

How the data were processed

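STAR 2.3.0e was used by the authors to align the 50-base single-end reads to sacCer3. Reads on Ensembl genes were then counted in htseq-count 0.6.0, ignoring strand and requiring an alignment quality of 10, and outlier replicates were removed. The deposited values are a signal per gene, namely counts divided by DESeq2 size factors (version not given in the sources used here). Removal of replicates by the authors can lower the spread that remains. The methods name triplicates, and of the strains used here only oe EGD2 has 2 libraries, so this limit bears on the spread within oe EGD2. Low values were whole multiples of a step, and 100% of values came out as whole reads within 0.01 in each of 11 libraries. In the file 4 lines were emptied, and neither these nor the upstream window of GPP1 are reported here. Of 7122 IDs, 6045 matched RefSeq R64.

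The main test was limma 3.58.1 (R 4.3.3, mean-variance trend) on log2(normalized count + 1), over the 6592 genes whose mean reached 5, with all 4 strains in 1 fit and Benjamini-Hochberg adjustment over all tested genes. Fold changes on this scale are understated for low genes. On recovered reads, edgeR 4.0.16 (quasi-likelihood) called 3 genes in the test of any difference among strains, as did DESeq2 1.42.0. Ratios were tested by exact permutation and relations by 100000 resamples, two-sided, the resamples shuffling libraries without regard to strain. Other alternatives were the filter, the pseudocount, the scaling, the replicate block and each library left out. The members and 8 lists (81 genes) were chosen with earlier results of these data known. The genes named are the members, the overexpressed chaperone genes, the 3 genes most like each member, and from the lists genes among the 4 with the lowest F test p, with 4 exceptions marked in the text (DAK1, FPS1, HOG1 and HOT1). The labels do not say that replicates are separate cultures, while the methods name biological triplicates; p-values measure the spread between these libraries only.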

Additional observations from a re-analysis of the deposited data

How the results depend on the processing

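Under 20 alternatives, each a change of tool, filter, pseudocount, scaling, block or a library left out, 0 of the 7 members were called in any comparison of a strain with the other 3. Of 560 values of a member in a strain under these settings, 57 changed sign, 22 of them in GPP1, and 13 of 28 differences changed sign under none. For GPP1 in oe LHS1 against the other 3, a main difference of 0.03 became -0.085 with edgeR, -0.081 with DESeq2 and -0.065 with the replicate block, and ranged from -0.117 to 0.183 with single libraries left out. For GPP1 in oe EGD2 it was 0.10 and ranged from -0.068 to 0.266 with libraries left out, while GPP2 in oe EGD2 was 0.37 and -0.094 with the replicate block. Counts of all genes called moved in some comparisons. With edgeR 0 genes in place of 1 were called in oe SSC1 against oe EGD2, oe LHS1 against oe EGD2 and oe EGD2 against oe TCP1. With DESeq2 4 in place of 1 were called for oe SSC1, 2 in place of 0 for oe EGD2 and 3 in place of 1 for oe TCP1, each against the other 3. With the replicate block 0 in place of 1 were called in oe LHS1 against oe EGD2. With a library left out, counts ranged from 0 to 1 in oe SSC1 against oe EGD2, oe LHS1 against oe EGD2 and oe EGD2 against oe TCP1, the 0 coming without oe EGD2 replicate 1 or 2. There the remaining oe EGD2 library is assumed to vary like the other strains. The cause was not tested.

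The replicate numbers were not taken to pair libraries, since only 8 of 15 same-numbered pairs had deviations correlated above 0.1 (range -0.58 to 0.642). Among pairs of replicate 1 libraries alone, r was 0.211 to 0.526, except for oe LHS1 with oe EGD2 (-0.194). The replicate 1 libraries also held the highest 4 values of STL1 and lay within the highest 5 for GPD1 and GPP2. This was not so for GPD2, GPP1, GUT1 or GUT2. Whether replicate number bears on the members' values was not tested. The spread between 2 or 3 libraries per strain, not depth, set the width of the intervals. Differences of GPD1, STL1, GPP2, GUT1 and GUT2 depended on single libraries. In oe LHS1 against the other 3, GPD1 ranged from -1.74 to -0.28 and STL1 from -3.15 to -0.81 with libraries left out. In oe EGD2 against the other 3, GPD1 ranged from 0.65 to 1.39, STL1 from 1.08 to 2.23, GPP2 from 0.08 to 0.61, GUT1 from 0.38 to 1.52 and GUT2 from 0.89 to 1.55. With the replicate block, GPD1 was 0.40 and STL1 0.61 there, against 1.07 and 1.71 in the main fit. GPP1 rose from 0.10 to 0.385 and GPD2 from 0.33 to 0.36.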
